A study of Mus musculus with 32 samples.

Results

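Migratory migDC1 were compared with resident cDC1 in 10 ATAC-seq libraries, 4 of migDC1 and 6 of cDC1, out of 32 libraries in the series. Members were taken by the cell type label within the floxed cohort, and no measured value entered that choice. ATAC-seq cuts accessible DNA with a transposase, so a peak marks a stretch of open chromatin. All 10 libraries came from dendritic cells (DCs) sorted from skin-draining lymph nodes of mice carrying floxed Ifngr1, the gene of the IFN-gamma receptor chain IFNgR1. Among migDC1 libraries, 2 came from CD11cCREpos/IFNgr1flfl mice (Cre-positive, labelled Ifngr1 KO) and 2 from CD11cCREneg/IFNgr1flfl mice (Cre-negative, labelled Ifngr1 WT). Among cDC1 libraries, 3 had each genotype. CD11c-Cre acts in CD11c-expressing cells, which include DCs other than DC1. The labels name the migDC1 sort after CD103 and the cDC1 sort after CD8a, and give neither ages nor whether libraries came from separate animals, so p-values measure the spread between libraries only. One design limit touches every result. The 4 migDC1 libraries all carry lettered titles and the 6 cDC1 libraries all carry plain numbered titles, so cell type and title series cannot be told apart within this contrast. The other floxed subsets bear on it: migDC2 and DN migDC libraries include 4 with plain numbered and 8 with lettered titles, and cDC2 libraries are all plain numbered.

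DC1 are conventional DCs that take up dead-cell material and present it on MHC class I to CD8 T cells, a process called cross-presentation. Their development depends on the transcription factors IRF8 and BATF3. Resident cDC1 enter the lymph node from blood, whereas migDC1 come from the skin, where they mature and follow CCR7 signals through lymph vessels. Mature DCs are known for lower antigen uptake and for more costimulatory ligands, chemokines and cytokines. The libraries compare 2 sorted populations and not the same cells before and after migration. In such bulk libraries, a larger share of cells with an open site and a more open site per cell cannot be told apart.

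The deposited values are peak lists, 1 per library, so the comparison rests on where a peak was called and not on read counts. Merging stretches that 3 or more of the 32 lists covered gave 90465 consensus regions, with a median width of 569 bp. A region counted as called in a library whose peak shared 50% or more of either its own or the region's length. Peaks per library averaged 55414 ± 7036 in migDC1 (SD, n = 4) and 62153 ± 6679 in cDC1 (SD, n = 6), a difference of -6739 (exact permutation test within genotypes, two-sided, p = 0.25). The shortest list was migDC1 Cre-negative 1 with 44991 peaks. Read depth is unknown for these files. Because list lengths differed, calls were also made with the 44991 strongest peaks of each list, called equal list length below. Peaks lay on 27 to 29 sequences (chromosomes and unplaced contigs) in migDC1 and on 41 to 47 in cDC1 (exact p = 0.01), and over all 28 floxed libraries this number was 27 to 30 with lettered and 41 to 47 with plain numbered titles.

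Ifngr1, the targeted gene, was checked in every library. Of its 16 regions, 7 and 7 were called in the migDC1 Cre-positive libraries and 4 and 8 in the migDC1 Cre-negative ones. In cDC1, 14, 13 and 15 were called in Cre-positive libraries and 15, 13 and 15 in Cre-negative ones. Over both populations, Cre-positive libraries averaged 11.2 ± 3.9 and Cre-negative ones 11 ± 4.85 (SD, n = 5 each; difference within cell types 0.333, exact permutation test, two-sided, p = 0.917). The region over the gene start was called in all 10 libraries, so these lists do not check the deletion.

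The sorted populations carried DC1 marks in both groups. At the start of Xcr1, the receptor for the chemokine XCL1 and a defining DC1 marker, the region chr9:123861728-123862357 (mm10) was called in 4 of 4 migDC1 and 6 of 6 cDC1 libraries. It was called in 0 of 6 cDC2 and in 0 of 12 migDC2 and DN migDC libraries. Its peak ranked at percentiles 38.5, 36.0, 23.8 and 39.8 of the 4 migDC1 lists by the authors' signal value, and between 42.6 and 90.7 in the cDC1 lists. Cadm1, a DC1 adhesion molecule, had a gene-body region of the same kind at chr9:47703517-47704295. Promoters of Irf8, Batf3 and Wdfy4 were called in all 10 libraries. They were also called in 6 of 6 cDC2 and in all 12 migDC2 and DN migDC libraries, so they do not set DC1 apart. Clec9a, the receptor for exposed actin on dead cells, differed. Its start was called in 0 of 4 migDC1 libraries and in 6 of 6 cDC1 libraries. At Ccr7, the lymph node homing receptor, the 25403-bp region chr11:99130267-99155669 was called in all 10 libraries. A shorter peak within the region is enough for a call, and no migDC1 peak was longer than 20686 bp. The strongest peak of the region stood at percentile 100 in each of the 4 migDC1 lists, and at 72.9 to 85.2 in cDC1 lists. Ranks from lists of unequal length describe each list and show no change between groups. None of the 3 tested Ccr7 regions separated the groups. In lists of equal length, 1 of 2 tested Ccr7 regions was called more often in migDC1.

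Promoter sequences are shown for genes whose start window separated the groups, followed by 2 that did not. Each is a RefSeq window of 300 bases (GRCm38.p6), 250 before and 50 after the gene start, printed 5′ to 3′ on the gene's strand. Il12a encodes the p35 subunit of IL-12, Cxcl1 a neutrophil-attracting chemokine, Gbp3 an interferon-induced GTPase and Apol7c an apolipoprotein L family member. All 4 windows were called in 4 of 4 migDC1 and 0 of 6 cDC1 libraries. They lie at chr3:68691174-68691473 (Il12a, plus strand), chr5:90890995-90891294 (Cxcl1, plus), chr3:142559794-142560093 (Gbp3, plus) and chr15:77533266-77533565 (Apol7c, minus). Clec9a at chr6:129408612-129408911 (plus) and Cd8a at chr6:71373177-71373476 (plus) were called in 0 of 4 migDC1 and 6 of 6 cDC1 libraries. Il12b at chr11:44399813-44400112 (plus) was called in 4 of 4 migDC1 and 5 of 6 cDC1 libraries. Xcr1 at chr9:123861980-123862279 (minus) was called in all 10. Capitals mark an NF-kB motif (GGGA, any base, TTTCC) in Cxcl1, where its overlapping variant (GGAAA followed by TTCCC) matches on the opposite strand. In Gbp3 and Apol7c they mark IRF motifs (GAAA, any pair of bases, GAAA), read on the opposite strand and overlapping each other.
Il12a: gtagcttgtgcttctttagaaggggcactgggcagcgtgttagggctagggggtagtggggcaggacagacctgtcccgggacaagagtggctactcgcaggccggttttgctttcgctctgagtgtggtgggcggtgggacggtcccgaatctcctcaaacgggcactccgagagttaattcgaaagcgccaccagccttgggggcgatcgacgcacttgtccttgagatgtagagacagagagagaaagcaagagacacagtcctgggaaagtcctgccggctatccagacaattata
Cxcl1: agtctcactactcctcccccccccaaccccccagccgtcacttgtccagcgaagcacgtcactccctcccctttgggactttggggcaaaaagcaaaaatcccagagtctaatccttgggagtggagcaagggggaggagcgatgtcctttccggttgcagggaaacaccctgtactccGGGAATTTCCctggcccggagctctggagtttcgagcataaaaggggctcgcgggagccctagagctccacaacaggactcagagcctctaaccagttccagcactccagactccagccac
Gbp3: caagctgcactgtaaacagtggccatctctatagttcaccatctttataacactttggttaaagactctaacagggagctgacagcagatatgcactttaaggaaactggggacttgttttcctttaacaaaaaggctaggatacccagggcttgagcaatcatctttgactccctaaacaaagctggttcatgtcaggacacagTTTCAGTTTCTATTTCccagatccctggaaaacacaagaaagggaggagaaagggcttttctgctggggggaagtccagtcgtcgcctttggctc
Apol7c: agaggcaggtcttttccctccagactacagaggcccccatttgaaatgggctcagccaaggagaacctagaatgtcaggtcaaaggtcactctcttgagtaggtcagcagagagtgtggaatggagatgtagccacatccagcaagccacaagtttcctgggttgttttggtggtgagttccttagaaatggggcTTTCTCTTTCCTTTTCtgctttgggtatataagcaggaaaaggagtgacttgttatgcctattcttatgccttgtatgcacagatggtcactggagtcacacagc
Clec9a: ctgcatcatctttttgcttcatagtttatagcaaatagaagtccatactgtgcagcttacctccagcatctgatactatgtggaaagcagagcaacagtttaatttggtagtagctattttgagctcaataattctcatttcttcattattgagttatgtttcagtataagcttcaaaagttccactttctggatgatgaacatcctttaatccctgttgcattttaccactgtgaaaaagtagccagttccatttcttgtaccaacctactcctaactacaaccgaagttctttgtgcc
Cd8a: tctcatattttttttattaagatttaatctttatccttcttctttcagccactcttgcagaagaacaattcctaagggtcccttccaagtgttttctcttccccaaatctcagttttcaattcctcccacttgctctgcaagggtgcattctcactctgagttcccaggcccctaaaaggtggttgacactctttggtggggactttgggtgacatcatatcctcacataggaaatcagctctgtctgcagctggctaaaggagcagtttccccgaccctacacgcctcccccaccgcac
Il12b: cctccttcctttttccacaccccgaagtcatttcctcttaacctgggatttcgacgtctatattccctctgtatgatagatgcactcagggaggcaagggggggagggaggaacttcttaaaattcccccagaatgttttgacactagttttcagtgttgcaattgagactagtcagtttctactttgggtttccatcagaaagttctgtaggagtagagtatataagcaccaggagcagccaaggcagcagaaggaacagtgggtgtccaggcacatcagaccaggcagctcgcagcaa
Xcr1: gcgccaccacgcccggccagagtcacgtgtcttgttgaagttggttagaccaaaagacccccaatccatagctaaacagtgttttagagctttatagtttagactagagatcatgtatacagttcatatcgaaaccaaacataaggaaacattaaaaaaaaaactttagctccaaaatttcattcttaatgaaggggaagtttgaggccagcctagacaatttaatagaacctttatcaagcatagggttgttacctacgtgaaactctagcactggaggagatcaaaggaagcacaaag

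Chromatin differed widely between the populations, in both directions. Of 36815 tested regions (those with 3 to 7 calls among the 10 libraries), 6806 (18.5%) were called more often in migDC1 and 6181 (16.8%) less often. With genotype as stratum, the exact conditional test passes its threshold only where all 4 migDC1 libraries differ from all 6 cDC1 libraries. Each such region has exact p = 0.01 and Benjamini-Hochberg adjusted p = 0.0215. Adjustment covered the 27929 tested regions whose totals allow p under 0.05, and those among them that did not pass had adjusted p of at least 0.0636. Of all tested regions that did not pass, 2807 were called in 3 migDC1 and 0 cDC1 libraries, 2415 of which lacked only migDC1 Cre-negative 1. Within Cre-positive mice alone, 10621 regions separated migDC1 from cDC1 as called more often in migDC1 and 9240 as less often. Within Cre-negative mice alone the balance was the other way, with 7572 more often and 11235 less often. That set includes migDC1 Cre-negative 1, the shortest list, whose part in this balance was not tested. It was the only exception in 2415 regions otherwise called more often, but in 19 otherwise called less often. Of regions short of the threshold, 3939 were called in 0 migDC1 and 5 cDC1 libraries. Regions called more often were assigned to 3616 genes, regions called less often to 3809 genes, and 1109 genes had both. A further 27610 regions were called in all 10 libraries.

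Libraries of 1 population resembled each other more than those of the other. The Jaccard similarity, the regions shared by 2 libraries over the regions called in either, had a median of 0.796 within migDC1, 0.786 within cDC1 and 0.534 between them. Mean similarity within populations exceeded that between them by 0.275 (exact permutation test within genotypes, p = 0.01, the smallest possible here). With no test, the migDC1 libraries had medians of 0.711 with migDC2 and 0.717 with DN migDC. With the plain numbered ones alone, the medians were 0.71 for migDC2 and 0.659 for DN migDC. The cDC1 libraries stood at 0.624 with cDC2 and at 0.535 with migDC2.

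Il12b, which encodes the p40 subunit shared by IL-12 and IL-23, had more open regions around it in migDC1. Of its 18 regions, 15, 17, 15 and 17 were called in the 4 migDC1 libraries, and 8, 8, 8, 8, 7 and 8 in the 6 cDC1 libraries. The groups did not overlap. Of 9 tested regions, 8 were called more often in migDC1 and 0 less often, each resting on a separate peak in every migDC1 library. They lie from chr11:44353194-44353542, upstream of the gene, to chr11:44409909-44410137 in its body. The region chr11:44389910-44390626 had its peak at percentiles 72.4, 74.1, 66.5 and 77.2 of the migDC1 lists and no peak in cDC1. That region was also called in all 12 migDC2 and DN migDC libraries and in 0 of 6 cDC2, whereas chr11:44409909-44410137 was called in none of the 18. At equal list length, 5 of 10 tested Il12b regions passed.

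**Figure D1:**
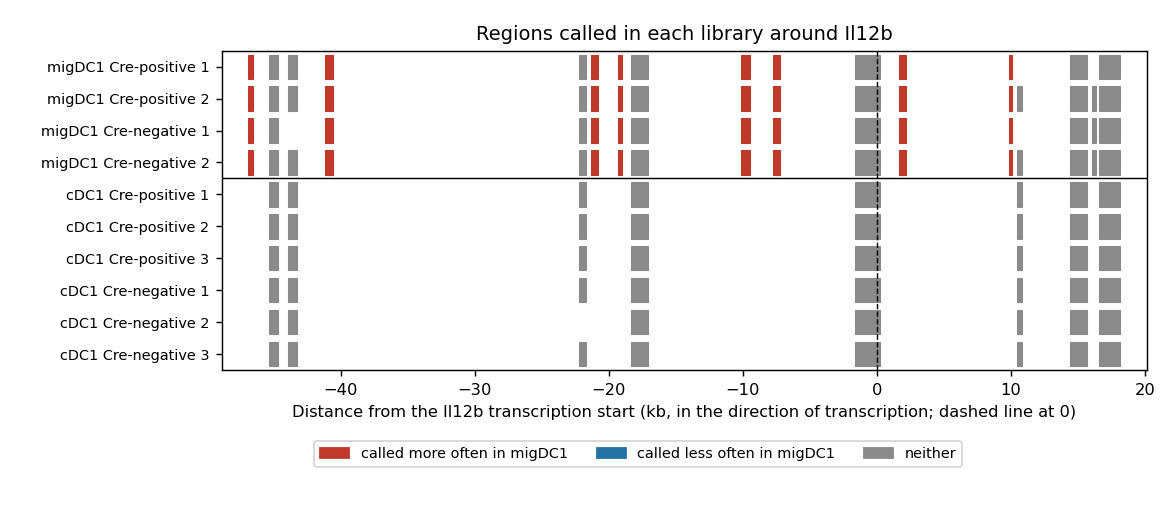
Regions called around Il12b in each of the 10 libraries (rows, migDC1 above cDC1), by distance from the transcription start in kb. Red blocks are the 8 regions called in 4 of 4 migDC1 and 0 of 6 cDC1 libraries; gray blocks are the other called regions, among them the one over the start, which was called in both populations.

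Other cytokine genes followed the same direction. Of 91 tested regions of the cytokine list, 42 were called more often in migDC1 and 4 less often, or 46.2% and 4.4%, against 18.5% and 16.8% of all tested regions. Csf1, the macrophage colony-stimulating factor gene, had 8 of 13 tested regions called more often. Lif had 4 more often and 1 less often of 6. Il15, which sustains NK and memory CD8 T cells, had 3 of 5 more often, and Il15ra, which presents IL-15, had 2 more often and 1 less often of 3. The median difference in the share of libraries with a call, migDC1 minus cDC1, was 0.83 over the list and -0.5 over all tested regions. Of the 42 regions, 23 were also called in all 4 plain numbered migratory libraries, a smaller share than the 4545 of all 6806 (66.8%).

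Genes of DC maturation and migration had many more regions called more often in migDC1 than less often: 87 of 208 tested regions (41.8%) called more often and 13 (6.25%) less often. Of the list's 39 tested genes, 23 had regions more often only, 7 had both kinds, 1 had regions less often only and 8 had neither. Mreg, a melanosome and lysosome regulator, had 12 of 20 tested regions more often, including the 8137-bp region chr1:72150573-72158709 at a gene end. Samsn1, an adaptor protein gene, and Slco5a1, a transporter gene, had 6 of 12 and 6 of 10. Smaller loci had few tested regions: Fscn1, the actin bundler of mature DC dendrites, had 2 of 4, Ccl22, a T cell-attracting chemokine, 2 of 5, and Cd40, the receptor for CD40 ligand, 1 of 3. Their promoters were called in all 10 libraries for Ccl22 and Fscn1. Cd86, a CD28 ligand on DCs, ran the other way with 5 of 10 less often and 0 more often, but 0 of 7 at equal list length. Neither Cd80 nor Cd83 had a region that passed, of 2 and 3 tested, but at equal list length Cd80 had 1 more often and 1 less often of 5.

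NF-kB genes showed the same direction. Of 111 tested regions, 44 (39.6%) were called more often in migDC1 and 7 (6.31%) less often. Ikbkb, the kinase that releases canonical NF-kB, had all 8 of its tested regions called more often, also at equal list length. Tnfaip3, the inhibitor A20, had 6 more often and 1 less often of 12, and Traf3, a brake on the noncanonical branch, had 5 of 7 more often. Relb, a noncanonical NF-kB subunit, had 1 of 2, and the 3 regions of Nfkb2, its partner, were called in all 10 libraries. Of the 44 regions, 28 were called in all 4 plain numbered migratory libraries, against 4545 of all 6806 (66.8%).

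Survival genes likewise had 27 of 75 tested regions (36.0%) called more often and 6 less often. Bcl2l1, which encodes the survival protein BCL-XL, had 5 of 8 more often, and Bcl2l11, the death-promoting BIM, 3 more often and 1 less often of 4. Cytoskeleton and motility genes had 44 of 150 (29.3%) more often and 17 (11.3%) less often, with Arhgap31, a Rac and Cdc42 inhibitor, at 4 of 7 more often. The median difference in the share of libraries was 0.75 over the maturation, NF-kB and survival lists. It was -0.33 over the cytoskeleton list, opposite in sign to its counts.

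**Figure D2:**
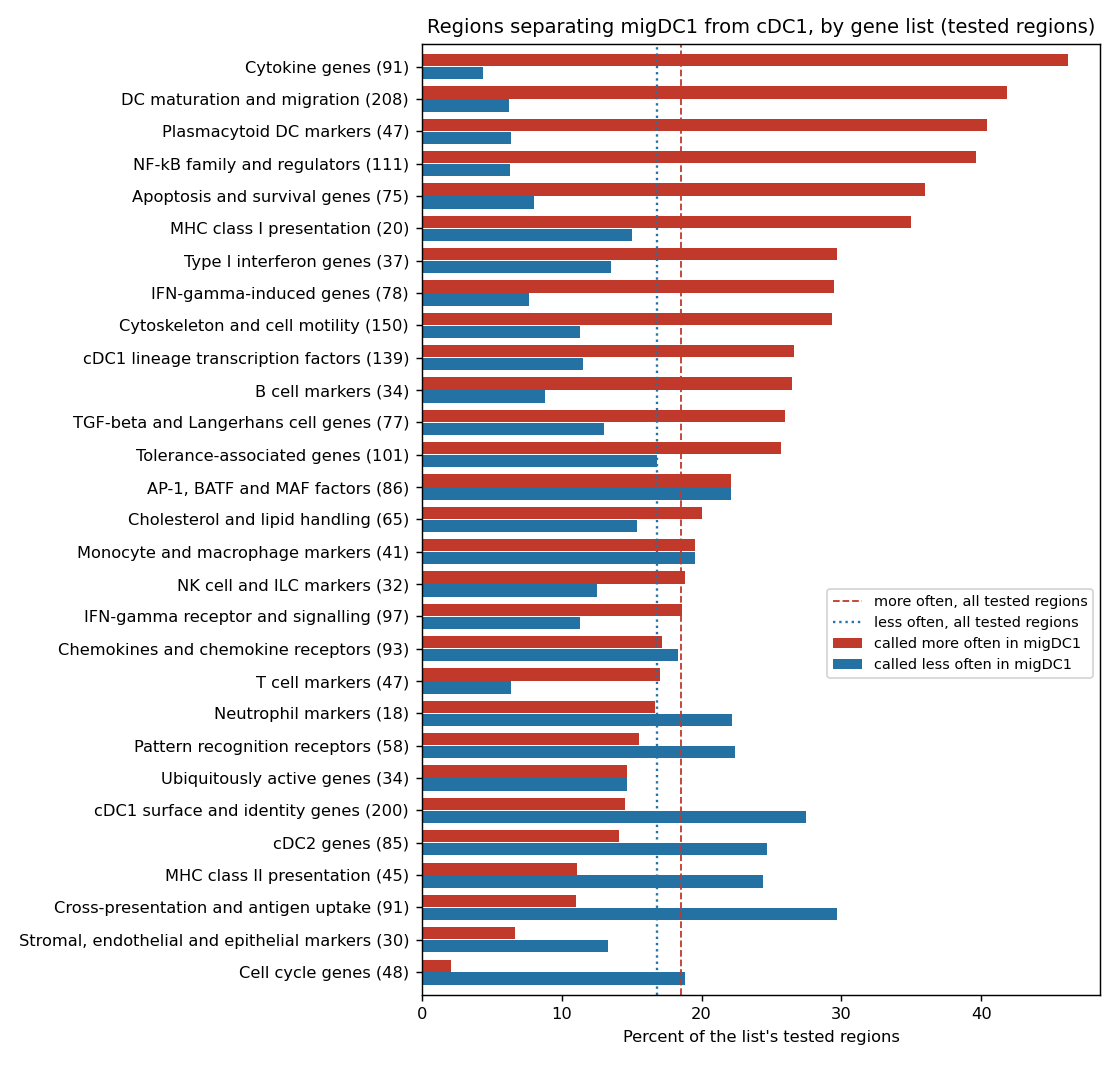
Percent of each list's tested regions called more often in migDC1 (red) and less often (blue), with the number tested in parentheses and lines at 18.5% and 16.8% for all tested regions. Cytokine genes lead with 46.2% more often, and cross-presentation genes have 29.7% less often.

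The cDC1 surface and identity genes went the other way, with 29 of 200 tested regions (14.5%) called more often in migDC1 and 55 (27.5%) less often. The list was nearly even at equal list length, with 35 of 156 (22.4%) more often and 40 (25.6%) less often, against 28.9% and 18.9% of all regions tested there. Wdfy4, a BEACH-domain protein needed by cDC1 to cross-present cell-associated antigen, contributed 16 of these 55. Of its 57 regions, 15, 17, 14 and 16 were called in migDC1 libraries, and 55, 47, 38, 53, 42 and 51 in cDC1 libraries. The groups did not overlap. Of 40 tested regions, 16 were called less often and 0 more often. Among them, the 5488-bp region chr14:32954105-32959592 at the far gene end had no peak in migDC1, and its peaks stood at percentiles 83.5 to 99.4 of the cDC1 lists. The promoter was open in all 10 libraries. Of the 16 regions, 12 were called in no cDC2, migDC2 or DN migDC library, and 0 followed the title style in other migratory libraries. At equal list length, 10 of 34 tested Wdfy4 regions were called less often.

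**Figure D3:**
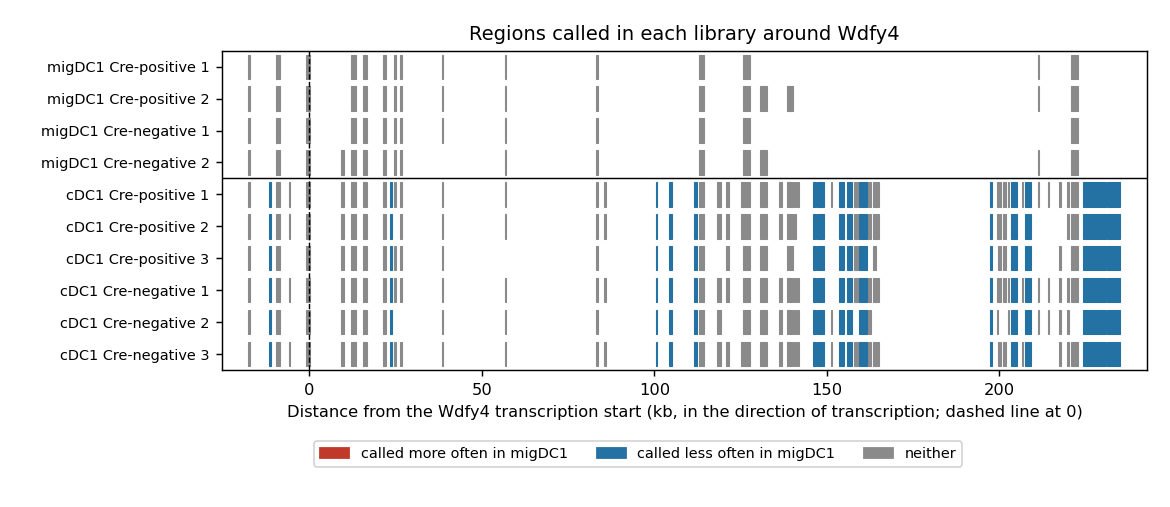
Regions called around Wdfy4 in each of the 10 libraries (rows, migDC1 above cDC1), by distance from the transcription start in kb. Blue blocks are the 16 regions called in 0 of 4 migDC1 and 6 of 6 cDC1 libraries, which run through the gene body to its far end; those called over the start are gray.

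Other identity genes contributed the remaining 39 regions called less often, of 160 tested outside Wdfy4 (24.4%). Rab7b, an endosomal GTPase, had 6 of 11 less often, all 6 called in no other floxed subset, and 6 of 7 at equal list length. Clec9a had both of its tested regions less often, at chr6:129408611-129409237 over the start and chr6:129421004-129421795 in the gene body. The peak at the Clec9a start stood at percentiles 67.7, 57.6, 67.5, 71.8, 45.6 and 70.6 of the cDC1 lists. Cd8a, which encodes the CD8-alpha chain, had 3 of 6 less often, but the cDC1 sort is named after that protein, so this is not independent of the sort. At equal list length 1 of 3 tested Cd8a regions passed. Xcr1 had a gene-body region less often, chr9:123858888-123859544, which was called in 6 of 6 cDC2 libraries and did not pass at equal list length. Ly75, the uptake receptor DEC-205, had 5 of 9 more often. Itgae, the gene of CD103, had 2 more often and 1 less often of 7. Of the 55 regions, 47 were called in none of the 4 plain numbered migratory libraries and 3 in all cDC2 libraries, against 3038 and 1845 of all 6181. The list's median difference was -0.67.

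Cross-presentation and uptake genes had 10 of 91 tested regions (11%) called more often and 27 (29.7%) less often. Without Wdfy4, which is on both lists, 11 of 51 (21.6%) were called less often. Cybb, the NADPH oxidase subunit that limits phagosome acidity, had 2 of 4 less often, but 0 less often and 1 more often of 4 at equal list length. Mertk, a receptor for apoptotic cells, had 4 of 6 more often, or 2 of 3 at equal list length. At equal list length the list had 7 of 73 more often (9.59%), against 28.9% of all tested regions there. It had 13 of 73 less often (17.8%), near the 18.9% of all tested regions there. MHC class II presentation genes had 5 more often and 11 less often of 45, but 9 in each direction of 42 (21.4% each) at equal list length. MHC class I genes had 7 more often and 3 less often of 20, of which Nlrc5, the class I transactivator, held 5 more often.

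Transcription factors of the cDC1 lineage were mixed by gene. Of 139 tested regions, 37 (26.6%) were called more often and 16 (11.5%) less often. Zfp366, which encodes DC-SCRIPT, had 13 of 21 more often and 0 less often, with 12 of 16 more often at equal list length. Its 35 regions were called 32, 33, 28 and 31 times in migDC1 libraries and 16, 14, 15, 18, 12 and 17 times in cDC1 libraries. Without it the list had 24 of 118 more often (20.3%). Irf8 had 2 in each direction of 13, Batf3 2 in each direction of 6, and Etv6 8 more often and 3 less often of 25. Zbtb46, expressed by conventional DCs in general, had 3 more often and 1 less often of 11. Irf8 had 4 more often and 3 less often of 14 at equal list length, and Batf3 3 more often and 1 less often of 5. AP-1, BATF and MAF factors had 19 in each direction of 86. At equal list length they had 23 more often (35.9%) and 12 less often (18.8%) of 64, against 28.9% and 18.9% of all regions tested there.

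Genes induced by IFN-gamma had 23 of 78 tested regions (29.5%) called more often in migDC1 and 6 (7.69%) less often. Nlrc5 had 5 of 9, including chr8:94426858-94429002 with peaks at percentiles 91.9 to 93.8 in migDC1. Irf1, a transcription factor induced by IFN-gamma, had 3 of 10, or 7 without migDC1 Cre-negative 1. Of the 23 regions, 20 were called in all 4 plain numbered migratory libraries and 18 in no cDC2 library, against 4545 (66.8%) and 5900 (86.7%) of all 6806. At Ifngr1 itself, 4 of 8 tested regions were called less often in migDC1 than in cDC1 and 0 more often, or 2 of 9 less often at equal list length. The receptor and signalling list stood at 18 of 97 (18.6%) more often and 11 (11.3%) less often. Jak2, the kinase bound to IFNgR2, had 3 of 8 more often but 0 under a stricter signal threshold. Type I interferon genes had 11 of 37 more often and 5 less often, 4 of the 11 at Rsad2, the antiviral protein viperin.

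Tolerance-associated genes had 26 of 101 (25.7%) more often and 17 (16.8%) less often, against 18.5% and 16.8% of all tested regions. At equal list length they had 25 of 79 (31.6%) and 12 (15.2%), near the 28.9% and 18.9% of all tested regions there. Il2ra, the high-affinity IL-2 receptor chain, had all 6 tested regions more often, and its start window was called in all 4 migDC1 and 0 of 6 cDC1 libraries. Cd200, an inhibitory ligand, had all 4 more often. Pdcd1lg2 and Cd274, the PD-1 ligands, had 3 of 8 and 1 of 3 more often. Ahr, the aryl hydrocarbon receptor, had 5 of 13 less often, and Il10ra, the IL-10 receptor chain, 4 of 7. For Ahr, 3 of 8 passed at equal list length.

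**Figure D4:**
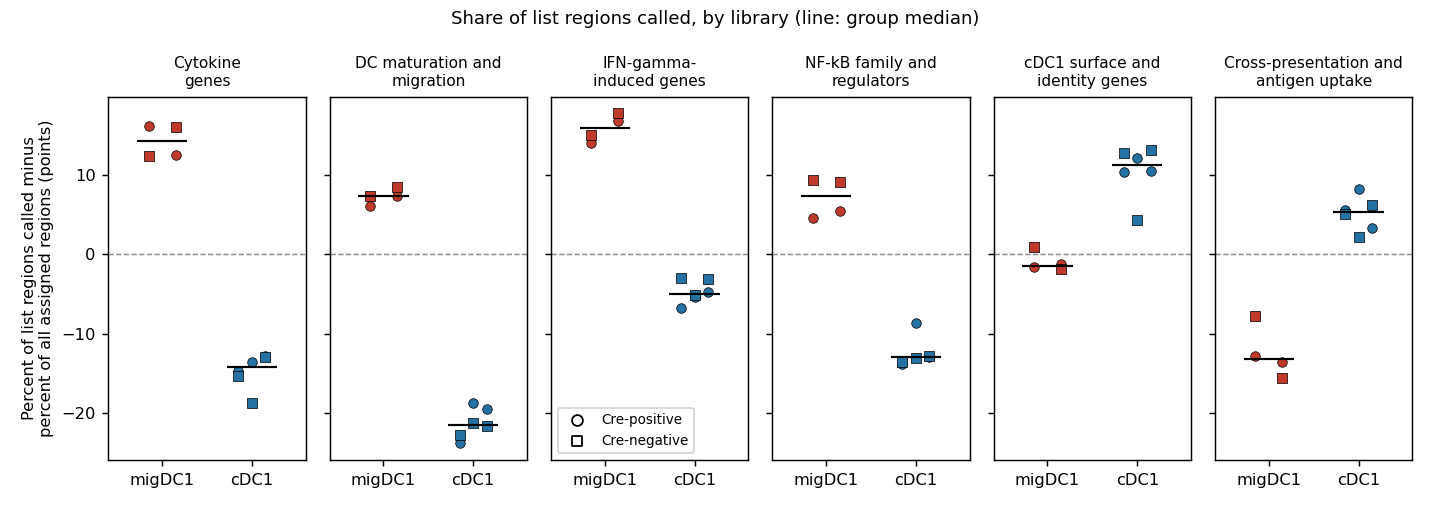
Percent of a list's regions called in a library minus the percent of all gene-assigned regions called there, in points, for migDC1 (red) and cDC1 (blue). Circles are Cre-positive and squares Cre-negative libraries, and the line is the median. The populations do not overlap in any of the 6 lists, which were picked for display: cytokine genes span 12.36 to 16.06 in migDC1 and -18.68 to -12.76 in cDC1. Most of the 29 lists do not overlap, so this is not particular to those shown. Lists of B cell, NK cell and ILC, monocyte and macrophage, and plasmacytoid DC markers do not overlap either. Neither do tolerance-associated, cytoskeleton, survival, TGF-beta and Langerhans cell, type I interferon and MHC class I genes. The same holds for cDC1 lineage transcription factors and for IFN-gamma receptor and signalling genes. As plain percent called, IFN-gamma-induced genes (61.2 to 79.6 in migDC1, 48.5 to 66.5 in cDC1) and NF-kB genes (55.6 to 71.0 and 45.3 to 58.6) overlap, and the remaining lists shown do not.

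Chemokine and chemokine receptor genes had 16 more often (17.2%) and 17 less often (18.3%) of 93, near the 18.5% and 16.8% of all tested regions. At equal list length they had 21 (30.4%) and 9 (13.0%) of 69, against 28.9% and 18.9% of all regions tested there. Pattern recognition receptors had 9 more often and 13 less often of 58, including 5 of 8 regions of Nod1, a sensor of bacterial peptidoglycan, called less often (2 of 6 at equal list length). There the whole list had 12 more often (28.6%) and 7 less often (16.7%) of 42, near the shares of all regions tested there. Cell cycle genes had 1 more often and 9 less often of 48, or 5 and 9 of 35 at equal list length, with Cdk6, a G1 kinase, at 3 of 10 less often. Ubiquitously active genes had 5 in each direction of 34.

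Over all genes, the locus with the most regions called more often was Atxn1, the ataxin-1 transcriptional regulator, with 22 of 36 tested and 20 of 29 at equal list length. It was followed by Ralgapa2 (14 of 22), Zfp366 (13 of 21), Nedd4l (13 of 27), Dscaml1 (12 of 23), Ksr1 (12 of 22) and Mreg. In the other direction Wdfy4 led, followed by Sfi1 (11 of 13), Snx29 (10 of 35), Dennd4a (9 of 27), Ssbp3 (8 of 14) and Ubac2 (8 of 15). In lists of equal length these were 7 of 11 for Sfi1, 7 of 24 for Snx29, 3 of 21 for Dennd4a, 5 of 10 for Ssbp3 and 4 of 13 for Ubac2. Long genes can hold more regions, and no adjustment for length was made. At Sfi1, 8 of the 11 were called in all 4 plain numbered and in none of the 8 lettered migratory libraries, so its direction moves with the title style. The same held for 5 of the 7 regions less often at Fcgr3, an Fc receptor gene, and for 0 of the 16 at Wdfy4.

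The called regions were then looked up in the libraries outside the contrast. The same shares were not computed over all tested regions, so those below describe the called regions only. Of the 6806 regions called more often in migDC1, 4545 (66.8%) were called in all 4 plain numbered and 4481 (65.8%) in all 8 lettered migDC2 and DN migDC libraries. In cDC2, 5900 (86.7%) were called in no library. Thus 3690 (54.2%) were called in every plain numbered migratory library and in no cDC2 library, all of 1 title style. Of the 6181 regions called less often, 3038 (49.2%) were called in none of the 4 plain numbered and 3528 (57.1%) in none of the 8 lettered libraries. Regions called in all 4 plain numbered and in none of the 8 lettered migratory libraries made up 696 (11.3%) of those less often, and the reverse pattern 2 of those more often. This strict pattern does not count regions that follow the title style in part. Of those less often, 1403 (22.7%) were called in all 4 plain numbered and 219 (3.54%) in all 8 lettered libraries. Regions called in no cDC2, migDC2 or DN migDC library made up 316 (4.64%) of those more often and 1705 (27.6%) of those less often.

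The DC2 pair was read in the same way, without a test. Its lists were unequal, with 38455 to 56115 peaks in cDC2 and 54657 to 74330 in floxed migDC2. No version at equal list length was made for this pair, and the part of list length in its counts was not tested. Of the 6806 regions, 4024 (59.1%) were also called in all 6 migDC2 and no cDC2 library, which is 47.0% of the 8558 regions so separated, and 0 were separated the opposite way. Of the 6181, 197 (3.19%) were also called in no migDC2 and all 6 cDC2 libraries, 38.3% of 514, and 3 were opposite. The 4 germline-cohort migDC2 libraries had shorter lists and called 40.6% to 59.6% of the regions more often and 0.421% to 3.58% of those less often.

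**Figure D5:**
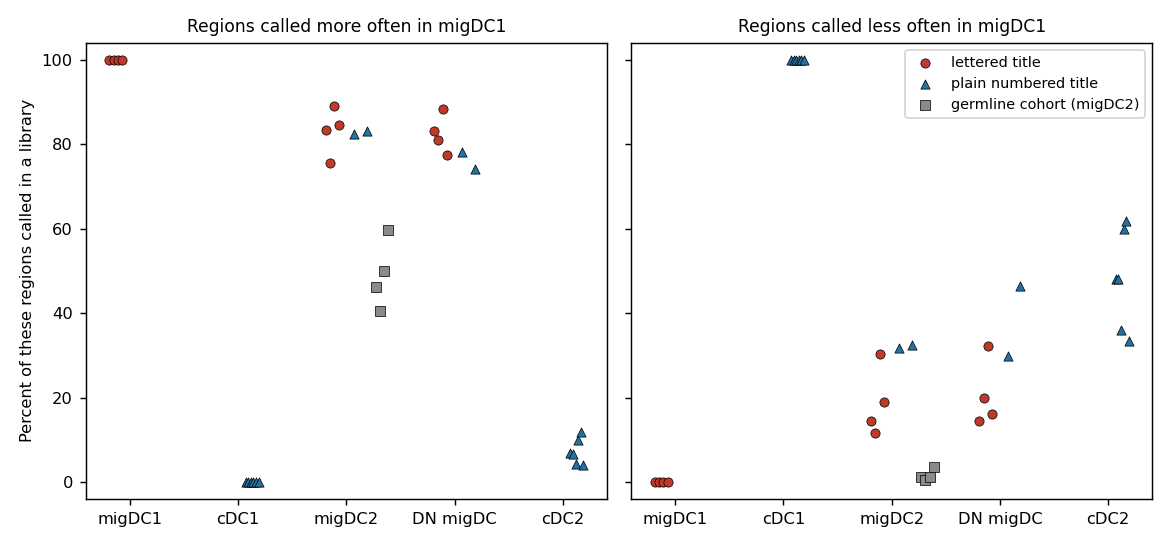
Percent of the regions called more often (left) and less often (right) in migDC1 that were called in each library, by cell type, with title style as symbol. Regions called more often were found in 74.2% to 89.0% of cases in floxed migDC2 and DN migDC libraries of either title style, and in 4.06% to 11.8% in cDC2. Regions called less often were found there in 29.8% to 46.3% with plain numbered and 11.6% to 32.2% with lettered titles, and in 33.3% to 61.8% in cDC2. The migDC1 and cDC1 libraries stand at 100 or 0 by construction.

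At promoters the balance turned. RefSeq start windows numbered 21045, of which 9349 were called in all 10 libraries and 9091 in none. Of 1228 tested windows, 56 (4.56%) were called more often in migDC1 and 229 (18.6%) less often (exact conditional test, adjusted p = 0.0313 each). Of the 229, however, 95 followed the title style in other migratory libraries, against 0 of the 56. Of those 95, 87 (91.6%) share at least 50 bases with another gene's window, against 17 of the other 134 (12.7%) and 7.69% of all windows. How reads from such copies were placed is not given in the sources used here, and its part in the result was not tested. The number of windows called per library followed the same split: it averaged 10403 ± 409 in migDC1 (SD, n = 4) and 11058 ± 245 in cDC1 (SD, n = 6; exact permutation test, p = 0.01), while other migratory libraries had 10712 to 11273 with lettered and 11445 to 11738 with plain numbered titles. Without migDC1 Cre-positive 1 its exact p was 0.075, and without Cre-positive 2 it was 0.05.

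The 56 windows belong to 51 genes. Besides the 4 printed, they include Il2ra, Il23r, a receptor chain for IL-23, Slamf1, a self-ligand receptor of immune cells, Il1rn, the IL-1 receptor antagonist, and Jag1, a Notch ligand. The windows of Il12a, Cxcl1, Apol7c and Slamf1 were called in all 12 migDC2 and DN migDC libraries and in 0 of 6 cDC2. The Gbp3 window was called in all 12 and in 1 of 6. Among windows less often that did not follow the title style were Clec9a, Cd8a, Apoe, which carries lipids, Il1a, a cytokine gene, Trem1, a myeloid activating receptor, and Acp5, an acid phosphatase. The Clec9a window was called in no library of cDC2, migDC2 or DN migDC. The Cd8a window was called in 6 of these 12 migratory libraries.

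Motifs were searched on both strands of the windows. The IRF motif was in 6 of the 56 windows called more often (10.7%: Apol10b, Apol7c, Coro2a, Gbp3, Oas1a and Slfn9), in 3 of the 134 called less often without title style (2.24%) and in 3.38% of all windows. The NF-kB motif was in 2 (3.57%, Cxcl1 and Stap2), in 0 and in 0.428%. AP-1 TGANTCA stood at 12.5%, 10.4% and 7.04%, RUNX TGTGGTT at 8.93%, 4.48% and 4.74%, PU.1 GAGGAAGT at 3.57%, 4.48% and 3.15%, and STAT TTCNNNGAA at 5.36%, 5.97% and 7.76%. The printed windows of Il12a, Clec9a, Cd8a, Il12b and Xcr1 held none of these motifs. A match is a match of letters only.

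Marker genes of other cells were read beside these results. Krt5 and Krt14 of keratinocytes, Col1a2 and Col3a1 of fibroblasts and S100a8, Elane, Ngp and Camp of neutrophils had no consensus region. Other genes of these lists did: the stromal, endothelial and epithelial list had 2 more often (Col1a1 and Des) and 4 less often of 30, 3 of the 4 at Pecam1, an endothelial gene. The neutrophil list had 3 more often (2 at Mpo and 1 at Mmp9) and 4 less often of 18. At equal list length the stromal, endothelial and epithelial list had 5 more often (21.7%) and 1 less often (4.35%) of 23. The neutrophil list had 5 (31.2%) and 3 (18.8%) of 16 there, near the 28.9% and 18.9% of all regions tested. Of 20 T cell genes, 2 had no region called in any migDC1 library and 1 none in any cDC1 library. For 16 B cell genes the counts were 3 in migDC1 (Cd79a, Cd79b and Fcer2a) and 1 in cDC1, and for 15 NK cell and ILC genes 4 in migDC1 and 3 in cDC1. The percent of a list's regions called in a library, less the percent of all assigned regions, ran from -16.02 to -10.67 points in migDC1 and from -26.03 to -16.16 points in cDC1 for B cell genes. T cell genes ran from -11.89 to -5.38 points in migDC1 and from -19.43 to 1.76 points in cDC1. Monocyte and macrophage genes ran from -9.92 to -5.56 points in migDC1 and from -3.97 to 1.08 points in cDC1. The plasmacytoid DC list had 19 of 47 regions more often and 3 less often, and ran from 1.19 to 2.48 points in migDC1 and from -22.74 to -17.48 points in cDC1. Runx2, a RUNX transcription factor, held 10 of those 19, and without it 9 of 28 were more often. The cDC2 list had 12 more often and 21 less often of 85, or 14 of 77 less often without Fcgr3, and 13 in each direction of 65 at equal list length. T and B cell lists had more regions called more often than less often, 8 against 3 of 47 tested and 9 against 3 of 34. The shares more often were 17.0% for T cell and 26.5% for B cell genes, against 18.5% of all tested regions. The shares less often were 6.38% and 8.82%, against 16.8%. At equal list length the counts were 12 against 2 of 38 and 12 against 3 of 24. All regions tested there stood at 28.9% more often and 18.9% less often. The part of such cells in the results was not tested.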

How the data were processed

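Per the labels, Omni-ATAC-seq libraries were made from sorted cells. Bowtie2, Genrich and deepTools and the build mm10 are named in the submitters' processing notes, without versions. The deposited narrowPeak lists, 1 per library, hold for each peak a signal value and a −log10 p as the authors' peak caller gave them. The smallest deposited signal was about 200 in every list. The sources used here give neither read filters nor a transposase shift, and lists hold no read counts, so depth and its precision are unknown.

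Only chromosomes 1 to 19 and X entered (Python 3.11.15, NumPy 2.4.6, pandas 2.3.3). A consensus region had 100 bp or more, covered in 3 or more of 32 lists. Regions were assigned to RefSeq genes (GRCm38.p6) within 1000 bp of a gene end, else by gene body, else to the nearest end within 50000 bp. Calls were compared by a two-sided exact conditional test with genotype strata (2 against 3 libraries in each), Benjamini-Hochberg adjusted at 0.05 over the 27929 of 36815 tested regions whose totals allow p under 0.05. Single values per library were compared by exact permutation within genotypes. The procedure was tested on simulated calls. Signal percentiles are ranks within a list. Named genes were up to 3 per list and direction and 10 per direction overall by number of called regions, plus a fixed set; others named were chosen after their values were seen. The 29 lists are described, not tested, and 2 listed genes had no matching symbol. Members and lists were chosen with earlier results of these data known. Alternatives were equal list length, a signal threshold 1.5 times the smallest, an overlap of 1 bp, another consensus, gene ends and bodies only, no strata, other adjustment families, each genotype alone and leaving out each library.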

Additional observations from a re-analysis of the deposited data

Results flagged for a closer look

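Of 70 groups of library values examined, 11 had 1 library far from the others, where chance flags about 1 in 20. Of these, 4 were values of migDC1 Cre-negative 1, with the shortest list: its covered length was 27.951 Mb, it had a call in 40880 regions, and 9791 promoter windows were called. It also had a score of 6.89 points for tolerance-associated genes, above the other migDC1 libraries. The median peak width of cDC1 Cre-negative 2 was 389 bp, below the other cDC1 libraries, and its scores were 4.33 for cDC1 surface and identity genes and -1.03 for pattern recognition receptors, both the lowest of cDC1. In migDC1 Cre-negative 2, the scores of cDC1 lineage transcription factors (15.83) and of IFN-gamma receptor and signalling genes (7.37) were the highest of migDC1. Type I interferon genes scored 10.21 in cDC1 Cre-positive 3 and NF-kB genes scored -8.71 in cDC1 Cre-positive 2, each the highest of cDC1.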

How the results depend on the processing

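No paired analysis was possible because replicate numbers were given in accession order only. Within 1 genotype no region can pass the threshold, since the smallest exact p is 0.1. Cre-positive libraries alone separated 10621 regions more often and 9240 less often, with fewer libraries to satisfy. Cre-negative libraries alone, which include the shortest list, separated 7572 more often and 11235 less often. At equal list length, 89 promoter windows were called more often. Without windows that follow the title style, an alternative chosen after seeing the data, 134 were called less often. Leaving out 1 library at a time gave 6810 to 9221 regions more often and 6200 to 8087 less often, and 56 to 85 promoter windows more often (85 without migDC1 Cre-negative 1) and 230 to 288 less often. Across these omissions the difference in peaks per library ran from -10579 to -2899 (exact p = 0.0333 without cDC1 Cre-positive 2, at -8968), in covered length from -9.94 to -3.71 Mb, in promoter windows per library from -857 to -453 (exact p 0.0167 to 0.075) and in within-minus-between Jaccard similarity from 0.265 to 0.291. The Cre difference at Ifngr1 ran from -0.667 to 1.333, with -0.667 without migDC1 Cre-negative 1; the cause was not tested. Equal list length tested 25970 regions and called 7509 (28.9%) more often and 4900 (18.9%) less often, 60.5% more often against 52.4%; 5549 and 2947 were in both sets and 0 changed direction. Among gene counts, 5778 of 6208 alternatives kept within 1.5 times the main count, and among list counts 846 of 928. Unknown depth limits every absent call: a missing peak is not closed chromatin.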

Other observations

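Regions open in every DC1 library and in no other floxed library were rare, 83 of 90465 (0.0917%), against 23390 open in all 28 floxed libraries. The cDC1 surface and identity list held 3 of the 83 among its 365 regions (0.822%): those at Xcr1 and Cadm1 described above, and chr13:112784930-112785627 near Plpp1, a lipid phosphatase gene. The chemokine and receptor list held 3 of 232 (1.29%), at Ccr1, a receptor for CCL3 and CCL5, Cxcr4, the CXCL12 receptor, and Xcr1. The cDC1 lineage transcription factor list held 0 of 386.

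Regions called more often in migDC1 had a median width of 591 bp and those called less often 488 bp, against 446 bp for all tested regions and 1159 bp for those called in all 10 libraries. Gene ends held 5.27% of the regions more often and 8.91% of those less often, against 7.95% of tested regions and 37.4% of those called in all 10.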
